A study of Mus musculus with 10 samples.

Results

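The Nodal pathway and its Lefty inhibitors were followed through 10 genes of the deposited RPKM table: Lefty1, Lefty2, Nodal, Tdgf1, Gdf3, Acvr1b, Acvr2a, Acvr2b, Foxh1 and Smad2. They were taken by name, and where a gene had several RefSeq transcripts the one with the highest mean RPKM over the 10 libraries stood for it. All 10 are among the 24520 genes of the table, and all 10 passed the filter on low values that left 11956 genes for testing. Acvr2b had 2 RefSeq accessions and Smad2 had 3, and the other 8 genes had 1.

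Nodal is a secreted ligand of the TGF-beta superfamily that binds activin receptors together with a co-receptor of the EGF-CFC family and passes its signal through SMAD2 and SMAD3 to the DNA-binding partner FOXH1. Lefty proteins are secreted antagonists that are themselves induced by the pathway, so that in the mouse embryo they form a feedback loop on Nodal. In mouse embryonic stem cells (ESCs) and the early epiblast the pathway is active, and lowering it is known to favour neural fate.

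All cells came from the mouse ESC line V6.5, and RNA was sequenced from 5 groups of 2 libraries that the labels call biological replicates. The NPC groups (neural progenitor cells, as the labels name them) were made through embryoid bodies kept for 4 days and then plated as a monolayer in ITSF medium. These were NPCs with siRNA against Cbx3, NPCs with siRNA against Med26 and NPCs with a control siRNA against luciferase, transfected on day 5 with RNA taken on day 8. The other 2 groups were undifferentiated ESCs, grown on irradiated fibroblast feeders with leukemia inhibitory factor, with siRNA against Cbx3 or with the control siRNA; the labels give no days for these. HP1 gamma, a chromatin protein that binds methylated histone H3, is the product of Cbx3, and Med26 encodes a Mediator subunit. The series title places Cbx3 in the question of how lineage choice is held during neural differentiation. Nothing says that the replicates came from separate differentiations, so every p-value here reflects the spread between libraries, which may be technical.

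Library depth, estimated from the steps between low RPKM values, was 23.3 to 63.8 M reads, which puts about 338 reads behind the least covered value of these genes (Acvr2b) and about 23359 behind the best covered (Tdgf1). Cbx3 was 0.425 and 0.249 RPKM in NPCs with Cbx3 siRNA against 9.37 and 9.65 RPKM in control NPCs, and 1.007 and 1.96 RPKM in ESCs with Cbx3 siRNA against 13.99 and 56.4 RPKM in control ESCs. Med26 was 3.04 and 3.07 RPKM in NPCs with Med26 siRNA against 7.56 and 6.78 RPKM in control NPCs. The control NPCs carried the progenitor gene Nes at 34.9 and 33.4 RPKM but also the pluripotency gene Pou5f1 at 484 and 497 RPKM. Esrrb was 1.18 and 0.913 RPKM against 53.4 and 13.7 RPKM in control ESCs, and Zfp42 14.3 and 16.0 against 79.6 and 58.6 RPKM. Klf4 was lower too, and Nanog, at 24.3 and 23.5 RPKM, lay between the control ESC libraries (44.2 and 18.0 RPKM). The neuronal gene Dcx stayed at or below 0.0243 RPKM in all 10 libraries. Elavl3 and Map2 stayed at or below 1.22 RPKM, whereas Tubb3 lay between 33.3 and 54.5 RPKM. The ESC replicates lay far apart, and replicate 1 had the higher summed RPKM of 5 pluripotency markers in both ESC groups (659 with Cbx3 siRNA and 734 in control, against 365 and 404 in replicate 2). In bulk RNA, fewer cells that express a gene and less RNA of it per cell cannot be told apart.

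Lefty1 and Lefty2 are near neighbours on mouse chromosome 1, and their coding sequences match at 91.8% of 1104 aligned bases. The stretch below is the 120-base window of coding exon with the most differences between them, and shows what tells reads of the 2 genes apart. It covers coding bases 46 to 165 of both genes, plus strand, at chr1:180935155-180935274 for Lefty1 and chr1:180893229-180893348 for Lefty2 (GRCm38, GENCODE M21 transcripts). Capitals mark the 34 bases that differ.
Lefty1: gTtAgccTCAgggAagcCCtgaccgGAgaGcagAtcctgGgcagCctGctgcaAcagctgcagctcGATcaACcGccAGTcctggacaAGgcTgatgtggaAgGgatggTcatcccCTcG
Lefty2: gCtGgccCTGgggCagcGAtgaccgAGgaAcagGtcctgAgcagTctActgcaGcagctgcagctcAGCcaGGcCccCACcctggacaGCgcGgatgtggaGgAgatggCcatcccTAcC
Elsewhere the coding sequences share runs of up to 140 identical bases. Of all 50-base windows of the Lefty1 transcript, 17.9% occur in Lefty2 as well, and 11.6% of those of Lefty2 occur in another gene, all but 1 of them in Lefty1. The sources used here do not say how reads with several matches were handled, and a part of the reads of either gene may be counted with the other. The same holds for Tdgf1, which shares 12.5% of its windows with the pseudogene Tdgf1-ps1, and for Acvr2a, which shares 7.0% with the overlapping gene Orc4. Gdf3 shared 2.0% with scattered transcripts, and Nodal, Acvr1b, Acvr2b, Foxh1 and Smad2 shared none.

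Knockdown of Med26 in NPCs lowered both Lefty genes, the receptor gene Acvr2b, Nodal and Gdf3, while knockdown of Cbx3 raised Lefty2 and Nodal, lowered Gdf3 and left Lefty1 near its control level. Differences are in log2(RPKM + 1), where the 1 added makes changes of low genes look smaller, and were tested with limma across all 11956 genes of the 6 NPC libraries, with Benjamini-Hochberg adjustment at 0.05. After Med26 siRNA 5 of the 10 genes fell and 0 rose, where 13.4% of all tested genes passed, 6.46% falling and 6.9% rising. That count was lower whichever NPC library was left out, as was the count of all tested genes. In the fit of all 10 libraries 2 of the 10 genes passed, where 15 of all tested genes did. After Cbx3 siRNA 2 of the 10 rose and 1 fell, where 13.1% of all tested genes passed, 7.8% rising and 5.33% falling. Here 0 of the 10 passed in the fit of all 10 libraries, where 1 of all tested genes did. The median difference of the 10 genes was -0.18 after Med26 siRNA and 0.04 after Cbx3 siRNA, beside -0.001 and 0.007 over all tested genes. The 2 comparisons share the control libraries, so their values are set side by side and not related to each other.

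**Figure D1:**
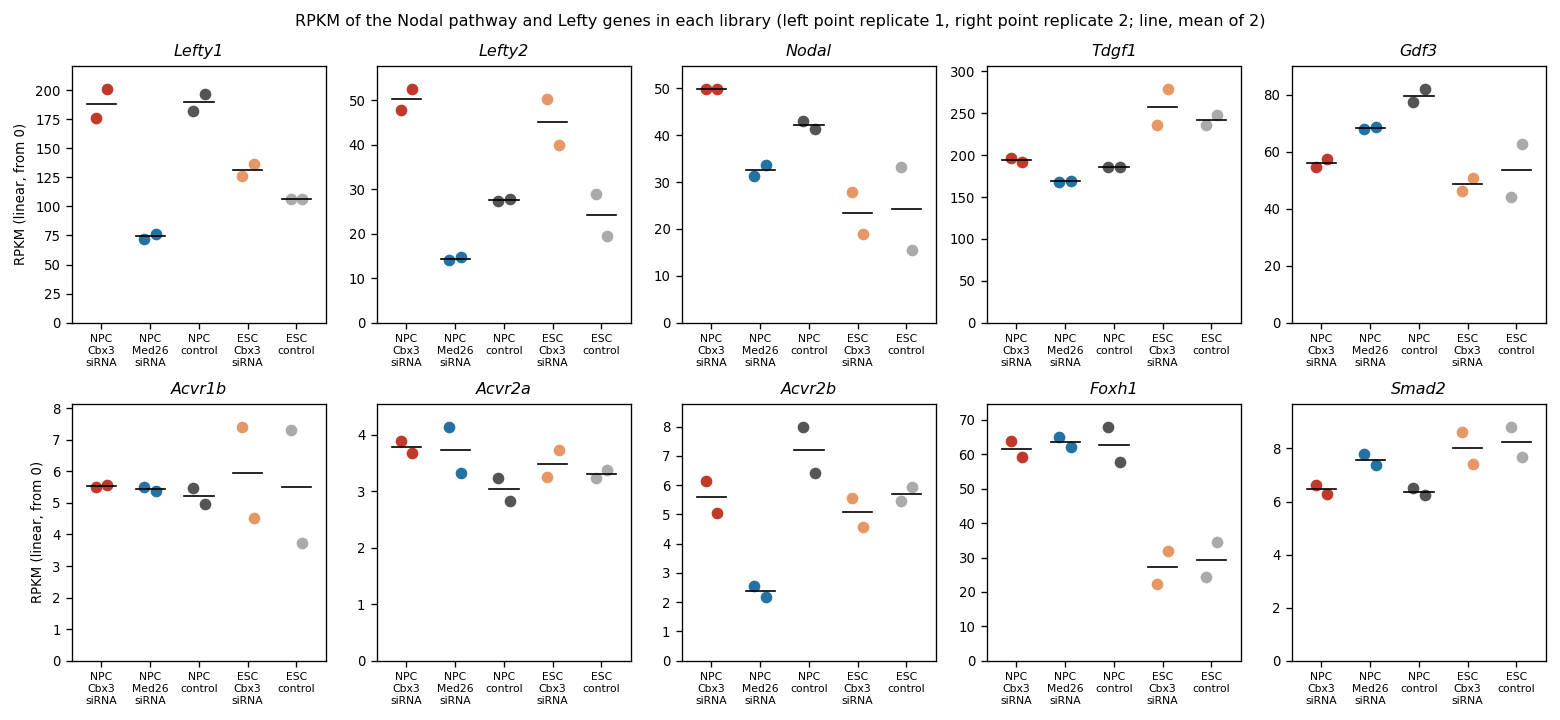
RPKM of each gene (vertical axes, linear from 0) in the 10 libraries, by group, with replicate 1 as the left and replicate 2 as the right point of each group and a line at the mean of 2. Lefty1, Lefty2 and Acvr2b lie lowest in NPCs with Med26 siRNA, and Lefty2 lies highest in the 2 groups with Cbx3 siRNA.

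Lefty1 was the most abundant inhibitor. It measured 72.2 and 76.6 RPKM in NPCs with Med26 siRNA against 182 and 197 RPKM in control NPCs, a ratio of means of 0.392. The groups did not overlap, and the difference of -1.34 (standard error 0.08, adjusted p = 0.00139, limma) was followed by that of Acvr2b, described below, whose ratio of means was lower still. In NPCs with Cbx3 siRNA Lefty1 was 176 and 201 RPKM, a range that encloses the control values (difference -0.01, 95% interval -0.21 to 0.18, adjusted p = 0.939). Set directly against each other, Lefty1 was higher with Cbx3 siRNA than with Med26 siRNA by 1.33 (standard error 0.08, adjusted p = 0.000944). Over the 5 groups Lefty1 averaged 188.3 ± 17.7 RPKM in NPCs with Cbx3 siRNA, 74.4 ± 3.12 in NPCs with Med26 siRNA, 190 ± 10.2 in control NPCs, 131 ± 7.34 in ESCs with Cbx3 siRNA and 106 ± 0.021 in control ESCs (mean ± SD, n = 2 each). Of these groups, NPCs with Cbx3 siRNA and control NPCs overlap and no others do, and every NPC library with Med26 siRNA lies below every ESC library.

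Lefty2 moved in opposite directions with the 2 siRNAs. It was 47.9 and 52.5 RPKM in NPCs with Cbx3 siRNA against 27.4 and 27.8 RPKM in control NPCs, a ratio of means of 1.82 and a difference of 0.84 (standard error 0.06, adjusted p = 0.00162, limma). After Med26 siRNA it was 14.1 and 14.7 RPKM, a ratio of 0.522 and a difference of -0.89 (standard error 0.06, adjusted p = 0.00183). None of these NPC groups overlap. The distance between Cbx3 siRNA and Med26 siRNA was 1.73 (standard error 0.06, adjusted p = 0.000319), the largest among the 10 genes in that comparison. With all 10 libraries fitted together, so that the spread of the ESC replicates enters the error, Lefty2 was not called after Cbx3 siRNA (adjusted p = 0.174) or Med26 siRNA (adjusted p = 0.155), whereas Lefty1 and Acvr2b still passed after Med26 siRNA.

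The balance of the pair differed between groups. Lefty2 made up 21.4% and 20.7% of the summed RPKM of both genes in NPCs with Cbx3 siRNA, 16.3% and 16.1% with Med26 siRNA, and 13.04% and 12.4% in control NPCs. In ESCs it made up 28.6% and 22.6% with Cbx3 siRNA against 21.4% and 15.6% in control. The sum of both inhibitors per RPKM of Nodal was 4.49 and 5.08 in NPCs with Cbx3 siRNA, 2.75 and 2.72 with Med26 siRNA and 4.88 and 5.43 in control NPCs. With Med26 siRNA this ratio lay below every other library, the nearest being control ESC replicate 1 at 4.08. These ratios are descriptions without a test.

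**Figure D2:**
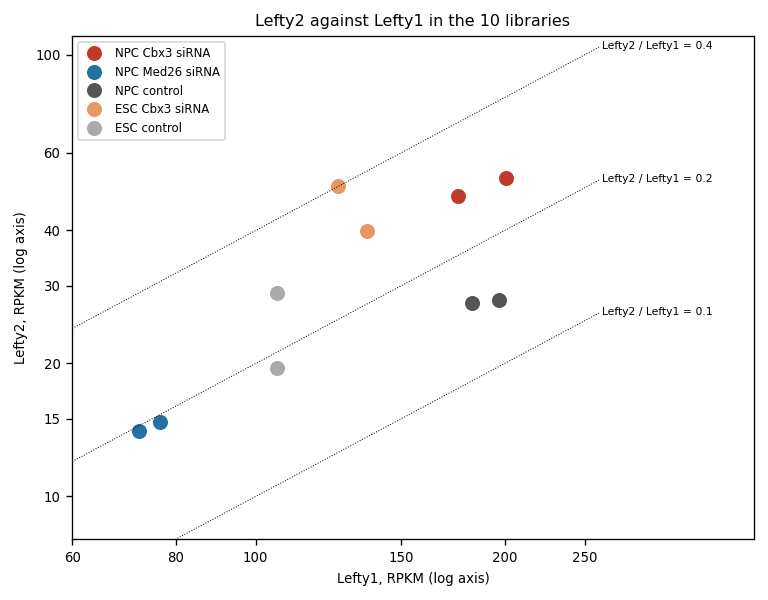
Lefty2 (vertical) against Lefty1 (horizontal) in RPKM, both on log axes, 1 point per library, with dotted lines at fixed ratios of Lefty2 to Lefty1. NPCs with Cbx3 siRNA lie straight above control NPCs, and NPCs with Med26 siRNA lie to the lower left of all other libraries.

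The ligand genes moved less. Nodal was 31.4 and 33.6 RPKM in NPCs with Med26 siRNA and 49.8 and 49.8 RPKM with Cbx3 siRNA, against 43.0 and 41.4 RPKM in control NPCs. It fell by 0.37 with Med26 siRNA (standard error 0.06, adjusted p = 0.0131, limma) and rose by 0.23 with Cbx3 siRNA (standard error 0.06, adjusted p = 0.0414). The groups do not overlap, but the rise lost its call whichever NPC library was left out (adjusted p between 0.0622 and 0.157), and the fall without either control library or without Med26 siRNA replicate 1 (adjusted p of up to 0.0878). The direct difference between Cbx3 and Med26 siRNA, 0.60 (standard error 0.06, adjusted p = 0.00249), kept its call without each of the 6 in turn.

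Gdf3, a relative of Nodal that uses the same co-receptor and is abundant in pluripotent cells, fell with both siRNAs. It was 54.7 and 57.3 RPKM with Cbx3 siRNA and 68.1 and 68.9 RPKM with Med26 siRNA, against 77.5 and 82.0 RPKM in control NPCs. The difference was -0.50 with Cbx3 siRNA (standard error 0.05, adjusted p = 0.00454, limma) and -0.22 with Med26 siRNA (standard error 0.05, adjusted p = 0.0493). With Med26 siRNA the call was lost whichever NPC library was left out (adjusted p between 0.0738 and 0.213). Gdf3 was lower with Cbx3 siRNA than with Med26 siRNA by a difference of -0.29 (adjusted p = 0.0178), a call that was lost when any library of these 2 groups was left out (adjusted p of up to 0.0919).

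**Figure D3:**
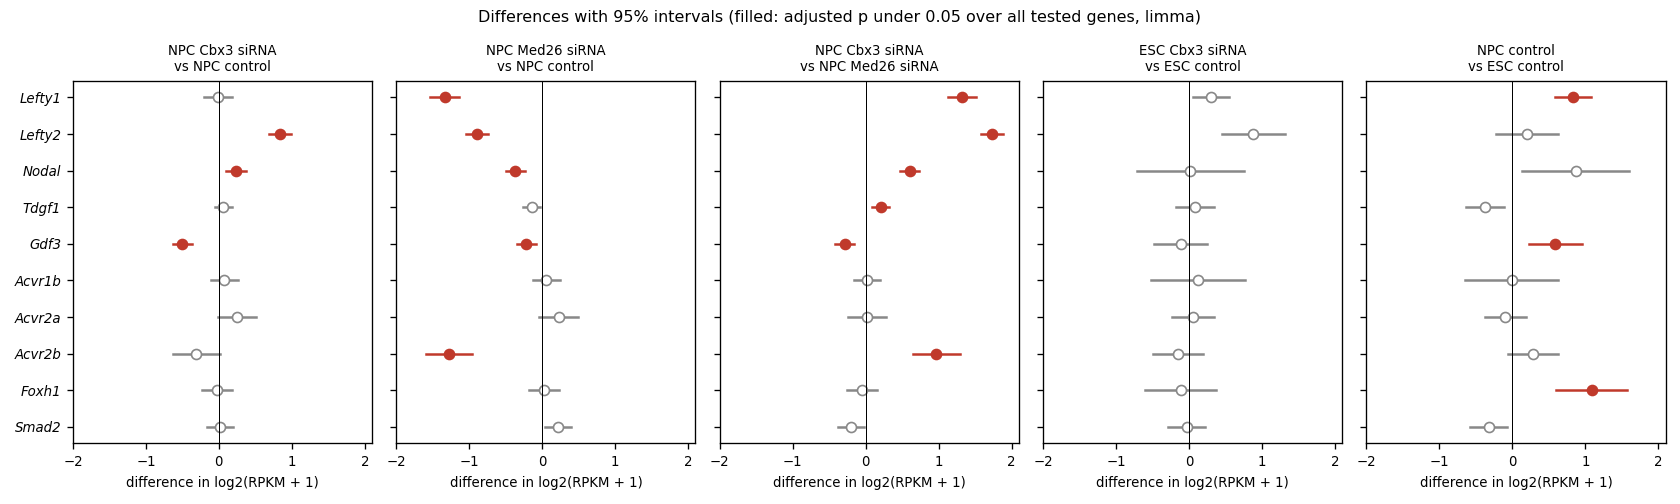
Differences in log2(RPKM + 1) (horizontal axes) with 95% intervals for the 10 genes in 5 comparisons, with only NPC libraries fitted for the first 3 and all 10 libraries for the others. Filled red points passed an adjusted p of 0.05, and the intervals are wider wherever ESC libraries enter.

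Tdgf1 encodes Cripto, the EGF-CFC co-receptor that Nodal and Gdf3 need, and was the most abundant of the 10 transcripts in ESCs. In NPCs it was 197 and 192 RPKM with Cbx3 siRNA, 168 and 170 RPKM with Med26 siRNA and 186 and 186 RPKM in control. The difference from control was 0.06 with Cbx3 siRNA (adjusted p = 0.43, limma) and -0.14 with Med26 siRNA (adjusted p = 0.0994), neither of which passed. Between the 2 siRNAs the difference of 0.21 passed (standard error 0.05, adjusted p = 0.0321), but not when any NPC library was left out (adjusted p between 0.0595 and 0.161).

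Among the type II receptors, Acvr2b stood apart from Acvr2a. Acvr2b was 2.55 and 2.18 RPKM in NPCs with Med26 siRNA, against 7.98 and 6.41 RPKM in control NPCs, a ratio of means of 0.329. The difference was -1.28 (standard error 0.13, adjusted p = 0.00486, limma), and these were the lowest 2 of the 10 libraries. With Cbx3 siRNA Acvr2b was 6.15 and 5.06 RPKM, below both control libraries, and did not pass (difference -0.31, 95% interval -0.63 to 0.01, adjusted p = 0.176). It was higher with Cbx3 siRNA than with Med26 siRNA by 0.97 (standard error 0.13, adjusted p = 0.00687). Acvr2a was 4.13 and 3.32 RPKM with Med26 siRNA and 3.89 and 3.67 RPKM with Cbx3 siRNA, against 3.24 and 2.83 RPKM in control NPCs, and passed in neither comparison (adjusted p = 0.216 and 0.189). Acvr1b, the type I receptor ALK4 that phosphorylates SMAD2, held between 4.97 and 5.55 RPKM over all 6 NPC libraries (adjusted p = 0.578 with Cbx3 siRNA and 0.683 with Med26 siRNA).

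The signal carriers inside the cell did not pass either. Foxh1 was 63.8 and 59.2 RPKM with Cbx3 siRNA and 65.1 and 62.3 RPKM with Med26 siRNA, against 67.9 and 57.8 RPKM in control NPCs, so that all 3 groups overlap (adjusted p = 0.866 and 0.882, limma). The 95% interval of its difference ran from -0.23 to 0.18 with Cbx3 siRNA and from -0.18 to 0.23 with Med26 siRNA. Smad2 was 7.78 and 7.37 RPKM with Med26 siRNA against 6.498 and 6.23 RPKM in control NPCs, without overlap, but the difference of 0.22 did not pass (95% interval 0.04 to 0.39, adjusted p = 0.0967). With Cbx3 siRNA it was 6.63 and 6.29 RPKM (adjusted p = 0.9).

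The start regions of Nodal and Acvr2b, which fell together after Med26 siRNA, and of Tdgf1, which passed in neither comparison with control, are shown. RefSeq promoter sequences (250 bases before to 50 after the start, GRCm38.p6) were matched for 5 of the 10 genes, the other 2 being Acvr1b and Acvr2a. They were searched on both strands for the FOXH1 motif AATNNACA and the SMAD motif CAGAC, which can share end letters though no match here does. Matches are in capitals, as GTCTG where the SMAD motif lies on the other strand. The Tdgf1 promoter at chr9:110946109-110946408, minus strand, holds 2 FOXH1 motif matches with 1 SMAD motif match between them.
Tdgf1: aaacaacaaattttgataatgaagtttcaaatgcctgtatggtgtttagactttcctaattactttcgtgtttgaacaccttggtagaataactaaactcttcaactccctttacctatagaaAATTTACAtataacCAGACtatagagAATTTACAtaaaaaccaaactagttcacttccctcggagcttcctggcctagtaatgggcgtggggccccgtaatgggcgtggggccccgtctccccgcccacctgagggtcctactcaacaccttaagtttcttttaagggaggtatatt
Nodal's promoter at chr10:61417722-61418021, plus strand, holds neither motif.
Nodal: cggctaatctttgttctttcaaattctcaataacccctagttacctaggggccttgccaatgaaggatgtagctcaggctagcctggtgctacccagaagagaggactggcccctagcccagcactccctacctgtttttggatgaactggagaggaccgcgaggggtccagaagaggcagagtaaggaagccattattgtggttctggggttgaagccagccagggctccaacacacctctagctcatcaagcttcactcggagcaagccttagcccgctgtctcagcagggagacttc
The Acvr2b promoter at chr9:119401928-119402227, plus strand, holds 1 SMAD motif match and no FOXH1 motif match.
Acvr2b: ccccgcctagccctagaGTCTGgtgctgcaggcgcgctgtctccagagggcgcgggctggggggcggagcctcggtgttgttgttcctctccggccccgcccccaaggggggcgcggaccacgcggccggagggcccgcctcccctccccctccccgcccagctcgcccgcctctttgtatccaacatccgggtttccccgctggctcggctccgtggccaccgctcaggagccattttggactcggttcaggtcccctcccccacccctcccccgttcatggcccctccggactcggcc
The promoters of Acvr1b and Acvr2a, which also passed in neither comparison with control, are not printed. Acvr2a holds 1 SMAD motif match and no FOXH1 motif match, like Acvr2b, and Acvr1b holds neither, like Nodal. Lefty1, Lefty2 and Gdf3, which also fell after Med26 siRNA, had no promoter sequence here, so a link between matches and falls was not tested. Of all 32851 promoters in the table, 12.2% hold the FOXH1 motif and 49.6% the SMAD motif, so the second is no rarity. Letters that match a motif do not show that a factor binds there.

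In ESCs the clearest difference after Cbx3 siRNA was again in Lefty2, at 50.3 and 39.9 RPKM against 28.9 and 19.6 RPKM in control ESCs. The groups do not overlap, and the ratio of means was 1.86, but the difference of 0.88 was not called (all 10 libraries fitted, standard error 0.18, 95% interval 0.46 to 1.31, adjusted p = 0.391, limma). Lefty1 was 126 and 136 RPKM with Cbx3 siRNA against 106 and 106 RPKM in control ESCs, also without overlap, and its difference of 0.30 did not pass (adjusted p = 0.807). For the other 8 genes the difference lay between -0.15 and 0.12, with an adjusted p of 1. In all, 0 of the 10 passed in ESCs, where 0 of all tested genes (0%) did, and 2 of the 10 and 645 of all tested genes had an unadjusted p under 0.05.

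The response to Cbx3 siRNA was not shown to differ between NPCs and ESCs for any of the 10 genes. For Lefty2 the NPC response minus the ESC response was -0.04 (95% interval -0.65 to 0.56), for Lefty1 -0.31 (-0.67 to 0.04), for Gdf3 -0.39 (-0.90 to 0.12) and for Nodal 0.22 (-0.82 to 1.26). None of the 11956 tested genes passed this test (0%, limma), and 233 of them but 0 of the 10 had an unadjusted p under 0.05. The intervals are wide, so the p-values do not show that the responses were alike.

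The median residual SD over all tested genes was 0.2 among the ESC libraries and 0.0827 among the NPC libraries. Of the 10 genes Nodal was the most unequal, at 0.59 and 0.0435, whereas Lefty1 (0.0567 and 0.0963), Acvr2a (0.0808 and 0.1204) and Acvr2b (0.1302 and 0.1632) varied less among the ESC libraries. Nodal was 27.8 RPKM in replicate 1 and 18.9 RPKM in replicate 2 with Cbx3 siRNA, and 33.1 and 15.4 RPKM in control ESCs. Acvr1b was 7.40 and 4.51 RPKM with Cbx3 siRNA and 7.29 and 3.72 RPKM in control, again with replicate 1 higher. Foxh1 ran the other way, at 22.3 and 32.0 RPKM with Cbx3 siRNA and 24.3 and 34.6 RPKM in control. Thus replicate 2 minus replicate 1 was -0.54 and -1.05 for Nodal, -0.61 and -0.81 for Acvr1b, -0.33 and -0.54 for Lefty2 and 0.50 and 0.50 for Foxh1 in the Cbx3 siRNA and control groups. The median absolute difference of all tested genes was 0.26 and 0.27. Lefty1 (0.11 and 0.0004) and Acvr2a (0.15 and 0.05) were closer between the replicates. Summed RPKM of 6 feeder markers was 62.0 and 68.0 in replicates 1 and 2 with Cbx3 siRNA and 49.5 and 74.2 in control, and their part in these differences was not tested.

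**Figure D4:**
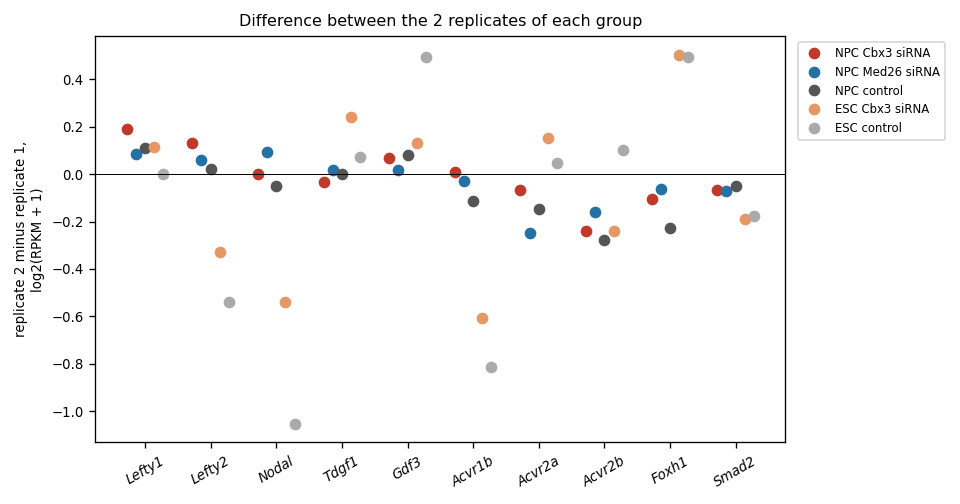
Replicate 2 minus replicate 1 in log2(RPKM + 1) (vertical axis) for each gene and group, 1 point per group. Both ESC groups lie below -0.3 for Lefty2, Nodal and Acvr1b and near 0.5 for Foxh1, while the NPC groups stay between -0.28 and 0.19.

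Between the cell types, control NPCs had more Lefty1, Gdf3 and Foxh1 than control ESCs when all 10 libraries were fitted. With only the control libraries fitted, 0 of the 10 genes passed, where 47 of all tested genes did. In the fit of all 10 libraries 3 of the 10 genes were higher and 0 lower, where 16% of all tested genes passed, 10.1% being higher and 5.94% lower. That count was lower without either control NPC library, as was the count of all tested genes. Foxh1 was 67.9 and 57.8 RPKM in control NPCs against 24.3 and 34.6 RPKM in control ESCs, a ratio of means of 2.14 (difference 1.09, standard error 0.21, adjusted p = 0.0153, limma). Lefty1 differed by 0.83 (standard error 0.11, adjusted p = 0.00484). Gdf3 was 77.5 and 82.0 RPKM in control NPCs against 44.3 and 62.7 RPKM in control ESCs (0.59, adjusted p = 0.0414), and lost its call without 7 of the 10 libraries, each left out in turn (adjusted p of up to 0.189). Foxh1 lost it without control ESC replicate 1 (adjusted p = 0.0517) and without either control NPC library (up to 0.115), and Lefty1 without control NPC replicate 2 (0.0543).

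Nodal was 43.0 and 41.4 RPKM in control NPCs, above 33.1 and 15.4 RPKM in control ESCs, but did not pass (0.87, adjusted p = 0.1, limma), and it passed without control ESC replicate 1 (1.39, adjusted p = 0.0164). Tdgf1 was 186 and 186 RPKM in control NPCs, below 236 and 248 RPKM in control ESCs (-0.37, adjusted p = 0.0585), and passed when either ESC library with Cbx3 siRNA was left out (Tdgf1 adjusted p = 0.0316 and 0.0298). Smad2 was 6.498 and 6.23 RPKM against 8.80 and 7.67 RPKM (-0.32, adjusted p = 0.0795). Lefty2, Acvr1b, Acvr2a and Acvr2b differed by -0.10 to 0.28 and did not pass (adjusted p from 0.228 to 0.983). Summed feeder markers were 7.42 and 5.67 RPKM in control NPCs against 49.5 and 74.2 RPKM in control ESCs, and their part in these differences was not tested.

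Outside the 10 genes, a list of 39 further ligands, processing enzymes, receptors, inhibitors, intracellular regulators and targets of the pathway was followed, of which 30 passed the filter on low values. After Med26 siRNA in NPCs 0 of the 30 rose and 3 fell, with a median of -0.03, where 6.9% of all tested genes rose and 6.46% fell. The share of the list that passed lies below the 13.4% of all tested genes, and the share that fell lies above the 6.46%. Fst, which encodes the activin antagonist follistatin, was 2.87 and 2.69 RPKM with Med26 siRNA against 5.25 and 5.83 RPKM in control NPCs (-0.79, standard error 0.09, adjusted p = 0.00564, limma). The primitive streak genes T and Fgf8, of which T encodes Brachyury and Fgf8 a growth factor, fell as well. T was 0.990 and 0.805 RPKM against 2.21 and 2.21 RPKM (-0.76, adjusted p = 0.0133), and Fgf8 was 1.14 and 1.04 RPKM against 5.27 and 4.00 RPKM (-1.42, adjusted p = 0.00756). T met the filter only through NPC libraries with Cbx3 siRNA or the control siRNA, so the filter favoured its being lower with Med26 siRNA.

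After Cbx3 siRNA in NPCs 4 of the 30 rose and 1 fell, with a median of 0.004, where 7.8% of all tested genes rose and 5.33% fell. Fst rose to 7.95 and 8.80 RPKM, against 5.25 and 5.83 RPKM in control NPCs (0.52, adjusted p = 0.0158, limma). Furin, a convertase that cleaves the Nodal precursor, was 8.77 and 7.68 RPKM against 6.20 and 6.10 RPKM in control (0.37, adjusted p = 0.0387). Tgfbr2, the TGF-beta type II receptor, was 1.04 and 1.05 RPKM against 0.706 and 0.644 RPKM (0.29, adjusted p = 0.0399). Its control values lie below the 1 RPKM of the filter, so this call rests on values near the floor. Eomes, a T-box factor of mesendoderm, was 2.95 and 2.79 RPKM against 2.06 and 1.94 RPKM (0.37, adjusted p = 0.0454). The gene that fell was Ppm1a, a phosphatase that acts on SMAD2 and SMAD3, at 36.8 and 35.9 RPKM against 52.7 and 54.2 RPKM in control (-0.54, standard error 0.05, adjusted p = 0.00361).

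Set against each other, Cbx3 siRNA was above Med26 siRNA for 4 of the 30 and below for 3, where 18.3% of all tested genes passed, 10.4% above and 7.87% below. Of the 10 genes 5 were higher and 1, Gdf3, lower. Among the 30, those above were Fst (1.31, adjusted p = 0.00112, limma), T (1.14, 0.00322), Fgf8 (1.38, 0.00578) and Furin (0.64, 0.00641). Ppm1a was lower (-0.33, 0.0109), as was Tgif1, which encodes a corepressor of SMAD2, at 40.2 and 31.4 RPKM with Cbx3 siRNA against 64.0 and 54.6 RPKM with Med26 siRNA (-0.72, 0.0183).

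**Figure D5:**
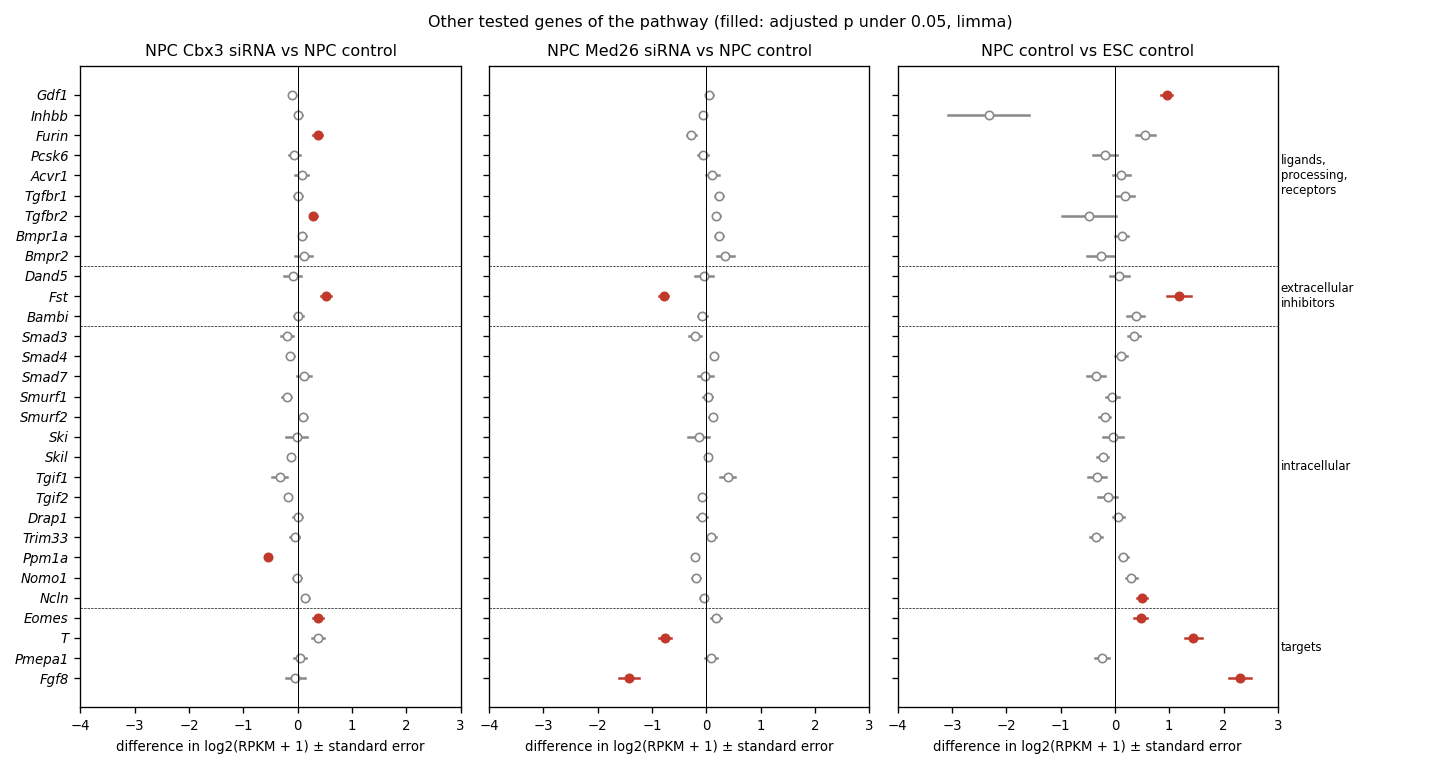
Differences in log2(RPKM + 1) with their standard errors (horizontal axes) for the 30 other tested genes, grouped by role, in 3 comparisons. Filled red points passed an adjusted p of 0.05, and Fst is filled in each panel, higher with Cbx3 siRNA (0.52), lower with Med26 siRNA (-0.79) and higher in control NPCs than in control ESCs (1.18).

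Between control NPCs and control ESCs 6 of the 30 were higher and 0 lower, where 10.1% of all tested genes were higher and 5.94% lower. With only the control libraries fitted, 47 of all tested genes passed. Gdf1, a ligand that pairs with Nodal, was 13.6 and 12.7 RPKM in control NPCs against 5.998 and 6.65 RPKM in control ESCs (0.95, adjusted p = 0.00254, limma). Fgf8 (2.30, 0.00124), T (1.44, 0.00274), Fst (1.18, 0.0136), the Nodal regulator gene Ncln (0.50, 0.0125) and Eomes (0.47, 0.0383) were higher too. Fgf8 and T stayed at or below 0.285 RPKM in every ESC library and met the filter only through NPC libraries. The filter thus favoured their being higher, and their place in the count is no independent result. After Cbx3 siRNA in ESCs 0 of the 30 passed. The 9 that could not be tested were Inhba, Acvr1c, Cfc1, Cer1, Inha, Gsc, Mixl1, Lhx1 and Foxa2. Of these Inhba reached 1.55 RPKM in its highest library and the others stayed at or below 0.635 RPKM.

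Summed cell type markers differed from control NPCs for some lists and overlapped control for others. Summed RPKM of the 5 primitive streak markers T, Eomes, Mixl1, Gsc and Fgf8 was 10.4 and 12.4 with Cbx3 siRNA, 5.03 and 5.14 with Med26 siRNA and 10.6 and 9.19 in control NPCs. The 5 neural progenitor markers summed to 43.9 and 42.5 with Cbx3 siRNA, 64.2 and 64.1 with Med26 siRNA and 59.2 and 54.2 in control. Most of each of these sums is Nes. After Cbx3 siRNA Pax6 (-0.98, adjusted p = 0.00226, limma), Sox1 (-0.71, 0.0064) and Sox3 (-0.43, 0.0436) were called lower. Nes (-0.14, 0.155) and Msi1 (-0.88, 0.0984) were lower there but did not pass. After Med26 siRNA no single marker of this list passed (adjusted p from 0.062 to 0.749, limma). Nes, Sox1 and Pax6 were higher there, and Sox3 (-0.06) and Msi1 (-0.25) lower. The pluripotency markers summed to 414 and 439, 504 and 533, and 524 and 538 in the same order of groups, and most of each sum is Pou5f1. With Cbx3 siRNA Pou5f1 (-0.32, adjusted p = 0.0247, limma) and Nanog (-0.30, 0.0326) were called lower, and Esrrb, Zfp42 and Klf4 were not called. Single pluripotency markers went opposite ways after Med26 siRNA. Nanog fell to 18.1 and 18.6 RPKM from 24.3 and 23.5 RPKM in control NPCs (-0.37, adjusted p = 0.0195, limma). Esrrb rose at a low level, with 2.11 and 2.14 RPKM against 1.18 and 0.913 RPKM (0.61, 0.0133). Klf4 was 0.929 and 0.855 RPKM against 0.458 and 0.352 RPKM (0.43, 0.0165). Klf4 stayed below 1 RPKM in all 6 NPC libraries and met the filter only through ESC libraries, so its call rests on values near the floor. Endoderm markers stayed between 1.45 and 2.44 in all 6 NPC libraries, with Afp at or below 0.0175 RPKM, and feeder markers were 9.26 and 8.18 with Cbx3 siRNA, 5.93 and 5.65 with Med26 siRNA and 7.42 and 5.67 in control. The 4 neuronal markers summed to 34.9 and 40.1 with Cbx3 siRNA, 45.6 and 47.0 with Med26 siRNA and 48.1 and 49.7 in control NPCs. Most of each sum is Tubb3, which was called lower with Cbx3 siRNA (-0.39, adjusted p = 0.0242, limma). Elavl3, Dcx and Map2 did not meet the filter. The part of these markers in the changes of Lefty1, Lefty2, Nodal, Gdf3 and Acvr2b was not tested.

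Genes whose profile over the 10 libraries lay closest to a Lefty gene or to Nodal were found by the mean absolute difference between log2(RPKM + 1) values centred on each gene's mean, as a description. Closest to Lefty1 were Rce1 (0.12), Phlda3 (0.17) and Cbx6 (0.18). Rce1 was 24.9 and 21.6 RPKM in NPCs with Cbx3 siRNA, 7.77 and 7.45 RPKM with Med26 siRNA and 19.9 and 17.7 RPKM in control NPCs. Closest to Lefty2 were H1f6 (0.16), Pdrg1 (0.23) and Cry1 (0.27), and H1f6 was 22.5 and 21.8 RPKM with Cbx3 siRNA, 5.78 and 5.91 RPKM with Med26 siRNA and 11.3 and 10.1 RPKM in control NPCs. Closest to Nodal were Bcar3 (0.09), the Wnt feedback gene Axin2 (0.13) and Col4a1 (0.15). In ESCs H1f6 was 20.3 and 12.9 RPKM with Cbx3 siRNA against 7.70 and 7.59 RPKM in control, and Bcar3 was 12.97 and 10.2 RPKM against 18.2 and 9.32 RPKM, with the same order of replicates as Nodal.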

How the data were processed

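The deposited table holds RPKM values (reads scaled by transcript length and by library total), which the authors computed per RefSeq accession and library. The submitters' processing notes name TopHat2 2.08 and mm9. The counting tool, annotation, strand use and read length were not given in the sources read. Of 35860 rows, 99.07% got a symbol from RefSeq (GRCm38.p6 gene table, which also gave neighbours). Whole reads could not be recovered (64.1% to 69.9% of low values lay within 0.1 reads of a step), so no count test was run.

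Genes reaching 1 RPKM in 2 or more libraries were tested on log2(RPKM + 1) with limma 3.58.1 in R 4.3.3 (intensity trend, two-sided, Benjamini-Hochberg over all tested genes at 0.05). NPC comparisons used the 6 NPC libraries, the others all 10, without a block; the residual degrees of freedom were 3 and 5. The fits were also run on simulated data with independent noise of equal spread in every library of a gene. Such data lack the wider and correlated spread of the ESC replicates, so that run does not bear on it. The 10 genes, the gene lists and the choice of fits were made with earlier results of these data known. All 10 genes are named in every comparison, and up to 6 passing genes of the wider list, of which 1 gene is not reported here. Transcript windows, alignments and motifs were computed with Biopython 1.88. Alternatives were another pseudocount, filter, row choice, scaling, prior and set of libraries.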

Additional observations from a re-analysis of the deposited data

How the results depend on the processing

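The 17 differences called among the 10 genes kept their sign in all 264 refits tried; other settings often took the call away. Values are log2 differences or counts. Leaving out 1 library at a time left 2 of the 10 genes called after Cbx3 siRNA in NPCs (3 with all libraries), 3 to 4 after Med26 siRNA (5), 4 to 5 between the siRNAs (6), 0 after Cbx3 siRNA in ESCs (0), 0 to 4 between control NPCs and control ESCs (3) and 0 for the difference of responses (0). Among all tested genes it gave 391 to 1063 (1570), 164 to 1148 (1597), 560 to 1672 (2185), 0 to 1 (0), 185 to 2699 (1918) and 0 (0) in the same order. An arm left with 1 library is assumed to vary like the other groups. With all 10 libraries in the fit, 0, 2 and 3 of the 10 genes and 1, 15 and 120 of all genes passed in the 3 NPC comparisons. Without the filter on low values (20125 genes tested) 876, 611 and 1325 genes passed there, 2 after Cbx3 siRNA in ESCs and 4 for the difference of responses. With only the control libraries, 47 genes and 0 of the 10 passed between control NPCs and control ESCs.

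The labels number the replicates but pair none. Deviations from the group means correlated at 0.892 between the ESC groups and at 0.423 to 0.461 between the NPC groups, a hint from the data. With the replicate number as a block, 3495, 3705 and 4234 genes passed in the NPC comparisons, 813 after Cbx3 siRNA in ESCs, 6912 between control NPCs and control ESCs, and 6 for the difference of responses; of the 10 genes it was 4, 7, 7, 2, 8 and 0. Newly called in NPCs with it were Acvr2b after Cbx3 siRNA (-0.31, adjusted p = 0.0196, limma), Tdgf1 (-0.14, 0.0187) and Smad2 (0.22, 0.0315) after Med26 siRNA, and Smad2 between the siRNAs (-0.20, 0.0368). Lefty2 (adjusted p = 0.00192, limma) and Lefty1 (0.0189) passed in ESCs with it, and in the 4 ESC libraries with the block, with 1 residual degree of freedom, 55 genes and 1 of the 10, Lefty2 (0.0193), passed. Between control NPCs and control ESCs the block newly called Nodal (0.87, adjusted p = 0.000244, limma), Lefty2 (0.20, 0.0254) and Acvr2b (0.28, 0.0315) as higher. It newly called Tdgf1 (-0.37, 0.000502) and Smad2 (-0.32, 0.00299) as lower. The block could not be fitted to the control libraries alone.

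The values that changed sign were all uncalled and lay between -0.12 and 0.22. Smad2 after Cbx3 siRNA in NPCs was -0.015 after quantile normalization and -0.0004 with equal medians, and its difference of responses was -0.0091 and -0.0005. Leaving out 1 library gave, after Cbx3 siRNA in NPCs, -0.11 to 0.083 for Lefty1, -0.14 to 0.087 for Foxh1 and -0.0154 to 0.052 for Smad2; after Med26 siRNA -0.0033 to 0.11 for Acvr1b and -0.091 to 0.14 for Foxh1; between the siRNAs -0.10 to 0.14 for Acvr2a and -0.10 to 0.0015 for Foxh1. After Cbx3 siRNA in ESCs it gave -0.51 to 0.54 for Nodal, -0.033 to 0.21 for Tdgf1, -0.36 to 0.13 for Gdf3, -0.29 to 0.53 for Acvr1b, -0.018 to 0.14 for Acvr2a, -0.36 to 0.14 for Foxh1 and -0.13 to 0.061 for Smad2. Between control NPCs and control ESCs it gave -0.066 to 0.47 for Lefty2 and -0.42 to 0.40 for Acvr1b. The difference of responses ranged from -0.31 to 0.23 for Lefty2, -0.31 to 0.75 for Nodal, -0.14 to 0.10 for Tdgf1, -0.45 to 0.36 for Acvr1b, -0.17 to 0.34 for Foxh1 and -0.042 to 0.15 for Smad2. The cause of these changes was not tested.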
